A study of Mus musculus with 8 samples.

Results

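The 10 genes described here are the 4 Id genes (Id1, Id2, Id3 and Id4) and 6 genes of bone morphogenetic protein (BMP) signalling: the ligand genes Bmp4 and Bmp7, the receptor genes Bmpr1a and Bmpr2, and Smad1 and Smad5, which encode the signal transducers. They were taken as every probeset whose single symbol in the platform's probe table was 1 of these names, which gave 1 probeset for each of the 10 genes, out of 19937 genes tested. Expression was measured on Affymetrix arrays in total RNA of NMuMG, an epithelial line from mouse mammary gland. The cells carried, by stable transfection, a control vector or a vector with major satellite sequences, which in the mouse genome form tandem arrays around the centromeres. They were untreated (0 h) or treated with TGFbeta for 8 h. All 4 groups are therefore transfected cells, and the 2 control vector groups carry a vector as well. The dose of TGFbeta, the promoter of the vectors and whether a line was 1 clone are not stated in the labels. No group is labelled as 8 h without TGFbeta, so the treatment and the 8 h of culture cannot be told apart. Differences called TGFbeta responses below hold both.

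Each of the 4 groups held 2 arrays, and each array title carried 1 of 2 codes that recur once in every group, called replicate 1 and replicate 2. The labels do not say that replicates were separate cultures, so the spread between these arrays may be technical. Standard errors come from fits with the replicate as a block, so they leave out the shift between replicates. For the TGFbeta response of Bmpr2 in control vector cells the standard error was 0.10 with the block and 0.58 without it. The number of arrays limits the precision. Array medians lay between 7.72 and 7.76 log2 units for replicate 1 and between 7.88 and 7.92 for replicate 2. Smad7 and Skil, genes that TGFbeta is known to induce, rose on average over both vectors by 1.20 ± 0.07 and 1.31 ± 0.06 (log2 difference ± standard error, SE). Without the replicate block described for the comparisons, the limma adjusted p of Skil was 0.0638 and that of Smad7 0.00242. The 9 epithelial markers had group means from 6.12 (Grhl2) to 14.36 (Krt8), the 8 fibroblast markers from 4.63 (Lum) to 8.99 (Col1a1), and the 6 measured endothelial and immune markers from 6.16 (Kdr) to 7.75 (Cd3e). Values on this log2 scale have no zero and no detection call was used, so no marker was called absent, and levels of different probesets are not compared.

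BMPs bind a pair of type I and type II serine/threonine kinase receptors, which phosphorylate Smad1 and Smad5, and these enter the nucleus with Smad4 to switch on target genes. The Id genes are classic direct targets of this arm. Id proteins carry a helix-loop-helix region but no basic region, so they pair with E proteins and keep them off DNA. TGFbeta signals mainly through other Smads, and in epithelial cells it is known to lower Id genes while BMPs raise them.

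Of the 10 genes, 8 matched the RefSeq promoter table of GRCm38.p6, and Id1 and Bmp7 are named only. The 250 bases upstream of the start site are printed for Id2 and Id3, which fell together, for their relative Id4, which did not pass the test, and for the ligand gene Bmp4, which also fell. Capitals mark GTCT on either strand (AGAC when read on the other), the core letters of the Smad binding element, and GGCGCC, a palindrome known as a site for the Smads of the BMP arm. No marked motifs overlapped one another.
Id2 upstream, chr12:25096093-25096342, minus strand: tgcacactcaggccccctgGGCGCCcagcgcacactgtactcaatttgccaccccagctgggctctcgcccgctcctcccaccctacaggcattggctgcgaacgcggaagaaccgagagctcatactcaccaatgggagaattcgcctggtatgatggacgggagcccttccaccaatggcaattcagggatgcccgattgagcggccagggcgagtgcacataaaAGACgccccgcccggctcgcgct
Id3 upstream, chr4:136143572-136143821, plus strand: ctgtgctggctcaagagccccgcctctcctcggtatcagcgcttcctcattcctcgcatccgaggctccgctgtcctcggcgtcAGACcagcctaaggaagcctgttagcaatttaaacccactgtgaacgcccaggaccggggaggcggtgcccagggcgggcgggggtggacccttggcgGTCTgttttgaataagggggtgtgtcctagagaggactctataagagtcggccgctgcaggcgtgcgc
Id4 upstream, chr13:48260866-48261115, plus strand: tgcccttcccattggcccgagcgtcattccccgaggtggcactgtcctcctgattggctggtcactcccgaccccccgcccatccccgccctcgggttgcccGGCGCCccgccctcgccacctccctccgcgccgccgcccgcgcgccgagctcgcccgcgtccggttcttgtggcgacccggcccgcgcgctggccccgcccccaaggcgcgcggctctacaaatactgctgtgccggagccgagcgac
Bmp4 upstream, chr14:46390670-46390919, minus strand: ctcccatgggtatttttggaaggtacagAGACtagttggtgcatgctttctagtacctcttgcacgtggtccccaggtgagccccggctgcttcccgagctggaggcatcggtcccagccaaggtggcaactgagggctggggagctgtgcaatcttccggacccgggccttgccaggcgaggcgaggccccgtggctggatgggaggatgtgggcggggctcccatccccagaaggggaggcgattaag
GTCT was found once upstream of Id2 and of Bmp4, at 2 places upstream of Id3 and at 0 upstream of Id4. GGCGCC was found at 1 place upstream of Id2 and of Id4, and at 0 upstream of Id3 and Bmp4. Over all 32851 promoter windows of 250 bases in the table, 82.9% held GTCT on either strand and 9.59% held GGCGCC. The E-box CANNTG, the palindrome bound by E proteins, was present in 66.2% of all windows, at 1 place upstream of Id2, at 3 upstream of Bmp4 and at 0 upstream of Id3 and Id4. These are matches of letters in this window only, and no binding was measured.

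The first comparison set 8 h of TGFbeta against untreated (0 h) in cells with the control vector. Id1, Id2, Id3 and Bmp4 fell, Bmpr2 and Smad5 rose, and Id4, Bmp7, Bmpr1a and Smad1 did not pass. Differences were fitted with limma with the replicate as a block and adjusted over all 19937 genes, with 0.05 as the threshold for the adjusted p. Of the 10 genes, 6 passed (2 higher and 4 lower), beside 14.6% of all genes tested (6.92% higher and 7.63% lower). Their median difference was -0.25, against 0.01 over all genes. In whole cultures, a smaller share of cells with a transcript and less of it per cell cannot be told apart.

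Id2, whose protein holds back differentiation factors of the helix-loop-helix class, read 13.68 and 13.67 on the untreated control vector arrays of replicates 1 and 2, and 11.96 and 11.43 on the treated ones. It thus lay lower on both treated arrays, with no overlap. It fell by 1.98 ± 0.13 on the log2 scale, 3.94-fold (adjusted p = 3.32e-05), and ranked 21 from the lowest of all 19937 genes. The fall was -1.72 within replicate 1 and -2.24 within replicate 2. Id2 was the 1 gene of the 10 that also passed without the replicate block in control vector cells (adjusted p = 0.014), where 1.07% of all genes passed.

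Id3 read 9.55 and 8.56 untreated and 8.22 and 7.25 after TGFbeta. Replicate 2 was lower than replicate 1 by about as much in both groups, and each treated array was below each untreated one. The within-replicate falls were nearly equal, -1.33 and -1.31. Id3, often expressed together with Id1, fell by 1.32 ± 0.12, 2.49-fold (adjusted p = 0.000189), while its adjusted p was 0.376 without the block. Its treated value in replicate 2, 7.25, lay under the median of that array, 7.92. Whether low signal limited the size of the fall was not tested.

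Id1, the Id gene best known as an immediate BMP target, read 12.13 and 11.39 untreated and 11.28 and 10.80 treated. The treated arrays again lay below both untreated ones, here by a narrow margin. Id1 fell by 0.72 ± 0.10, 1.65-fold (adjusted p = 0.00149, and 0.679 without the block). Id4, the fourth member, read 7.86 and 7.29 untreated and 7.61 and 7.37 treated, so its groups overlapped. Its difference was -0.08 ± 0.11 with a 95% confidence interval from -0.32 to 0.16 (adjusted p = 0.724), and it had opposite signs in the replicates, -0.25 and 0.09. The mean of Id4 over the arrays lay under 7.80, the lowest mean kept when genes of low mean were left out as a check. Whether its probeset could have shown a response was not tested.

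**Figure D1:**
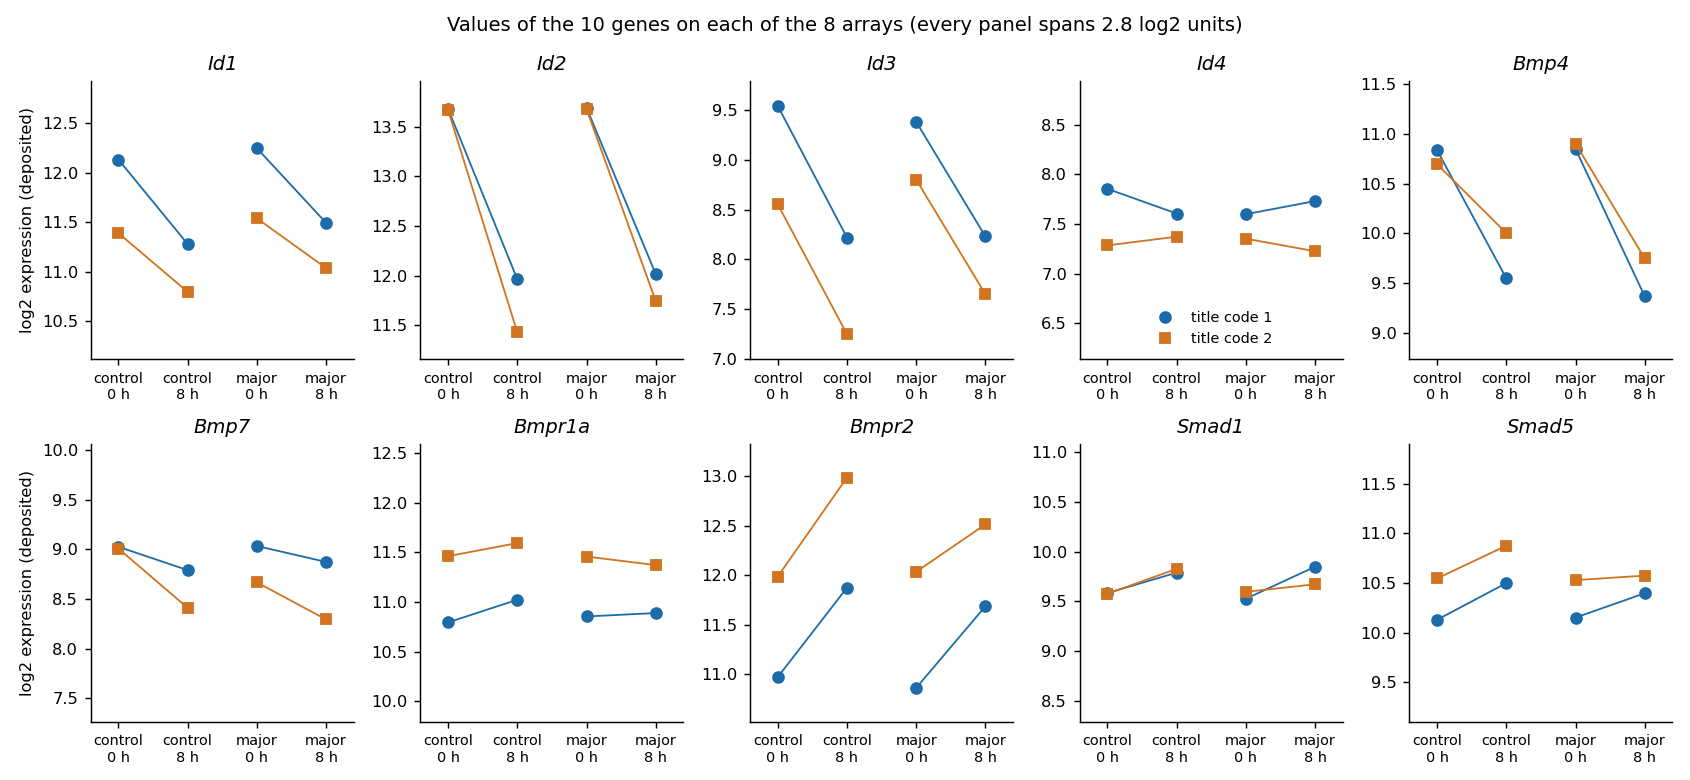
Each panel plots 1 gene, with the 4 groups on the horizontal axis and the deposited log2 expression on the vertical axis. Points are single arrays, circles for title code 1 (replicate 1) and squares for title code 2 (replicate 2), and lines join the untreated and treated array of one vector and code. Every panel spans the same range of log2 units, so slopes can be compared but levels of different genes cannot. Id1, Id2, Id3 and Bmp4 slope down in all 4 lines, for Id2 from 13.68 to 11.96 in the control vector line of code 1, and Bmpr2 slopes up in all 4.

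Among the ligands, Bmp4 read 10.84 and 10.70 on untreated control vector arrays and 9.55 and 10.003 on treated ones. Both treated arrays were lower, and the fall was larger in replicate 1 (-1.29) than in replicate 2 (-0.69). Bmp4 fell by 0.99 ± 0.14, 1.99-fold (adjusted p = 0.00158, and 0.0908 without the block). Bmp7, the ligand gene known to oppose TGFbeta in epithelial cells, read 9.03 and 9.01 untreated and 8.79 and 8.41 treated. Its arrays did not overlap, but its difference of -0.42 ± 0.12 did not pass (adjusted p = 0.056, 95% confidence interval from -0.70 to -0.14). It passed at 0.0154 without the untreated control vector array of replicate 1 and at 0.0384 without either treated major satellite array.

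The receptors differed in their values. Bmpr2, which encodes the type II receptor of BMPs, read 10.97 and 11.99 untreated and 11.87 and 12.98 treated. Replicate 2 lay about 1 unit above replicate 1 throughout, so the groups overlapped although each replicate rose, by 0.90 and 0.997. The fitted rise was 0.95 ± 0.10, 1.93-fold (adjusted p = 0.000355, and 0.869 without the block). Bmpr1a, which encodes a type I receptor, read 10.79 and 11.46 untreated and 11.02 and 11.59 treated. Its difference was 0.18 ± 0.09 (adjusted p = 0.234), with a 95% confidence interval from -0.01 to 0.37.

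The 2 Smads of the BMP arm among the 10 genes moved little. Smad5 read 10.13 and 10.55 untreated and 10.50 and 10.88 treated, higher within each replicate but with overlapping groups. It rose by 0.35 ± 0.09, 1.27-fold (adjusted p = 0.0325), a call that was lost in 6 of 8 fits that left out 1 array (adjusted p up to 0.23) and without the block (0.881). The arrays whose omission ended it were the 4 of the control vector and the 2 untreated ones of the major satellite vector. Smad1 read 9.58 and 9.57 untreated and 9.79 and 9.83 treated, which did not overlap. Its difference of 0.23 ± 0.09 did not pass (adjusted p = 0.153). Groups did not overlap for 6 of the 10 genes, beside 29.3% of all genes.

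The same comparison was made in cells with the major satellite vector, where Id1, Id2, Id3 and Bmp4 fell and Bmpr2 rose. This made 5 of 10 genes that passed, 1 higher and 4 lower, beside 15.3% of all genes tested (6.89% higher and 8.38% lower), with a median difference of -0.15 against 0.03 over all genes. Arrays of the 2 groups did not overlap for 5 of the 10, beside 34% of all genes. The 2 TGFbeta comparisons share no arrays, but their arrays share the replicate codes and 1 estimate of the spread.

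Id2 read 13.69 and 13.68 on untreated major satellite arrays and 12.02 and 11.74 on treated ones, with both treated arrays lower. It fell by 1.80 ± 0.13, 3.49-fold (adjusted p = 5.29e-05), ranked 37 from the lowest, and passed without the block too (adjusted p = 0.02), where 1.09% of all genes passed. Id3 read 9.39 and 8.80 untreated and 8.23 and 7.65 treated. Its falls were -1.15 within each replicate, and the fitted fall was 1.15 ± 0.12, 2.23-fold (adjusted p = 0.000389, and 0.468 without the block). The treated value of Id3 in replicate 2 again lay under the median of its array, here 7.88. Id1 read 12.25 and 11.54 untreated and 11.49 and 11.04 treated, and fell by 0.63 ± 0.10, 1.54-fold (adjusted p = 0.00311, and 0.742 without the block). Id4 read 7.60 and 7.35 untreated and 7.73 and 7.23 treated. The Id4 groups overlapped and the replicates differed in sign, with a difference of 0.00 ± 0.11 (95% confidence interval -0.24 to 0.24, adjusted p = 0.99), which was -0.01 after either median-centring or quantile normalisation of the arrays.

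Bmp4 read 10.85 and 10.90 on untreated major satellite arrays and 9.37 and 9.75 on treated ones. The treated arrays were both lower, and the fall of 1.32 ± 0.14, 2.50-fold (adjusted p = 0.000363), passed without the block as well (adjusted p = 0.0431). Bmp7 read 9.03 and 8.67 untreated and 8.87 and 8.29 treated. Unlike in control vector cells its groups overlapped, and its difference was -0.27 ± 0.12 (adjusted p = 0.196).

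Bmpr2 read 10.87 and 12.03 on untreated major satellite arrays and 11.69 and 12.51 on treated ones. The groups overlapped, while the rise was 0.82 within replicate 1 and 0.48 within replicate 2. It rose by 0.65 ± 0.10, 1.57-fold (adjusted p = 0.00268, and 0.928 without the block). Bmpr1a read 10.85 and 11.46 untreated and 10.89 and 11.37 treated, a difference of -0.03 ± 0.09 (adjusted p = 0.876). Smad1 read 9.52 and 9.59 untreated and 9.85 and 9.67 treated. Its arrays did not overlap, and its difference of 0.20 ± 0.09 did not pass (adjusted p = 0.192). Smad5 read 10.15 and 10.53 untreated and 10.40 and 10.57 treated, a difference of 0.15 ± 0.09 (adjusted p = 0.338).

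**Figure D2:**
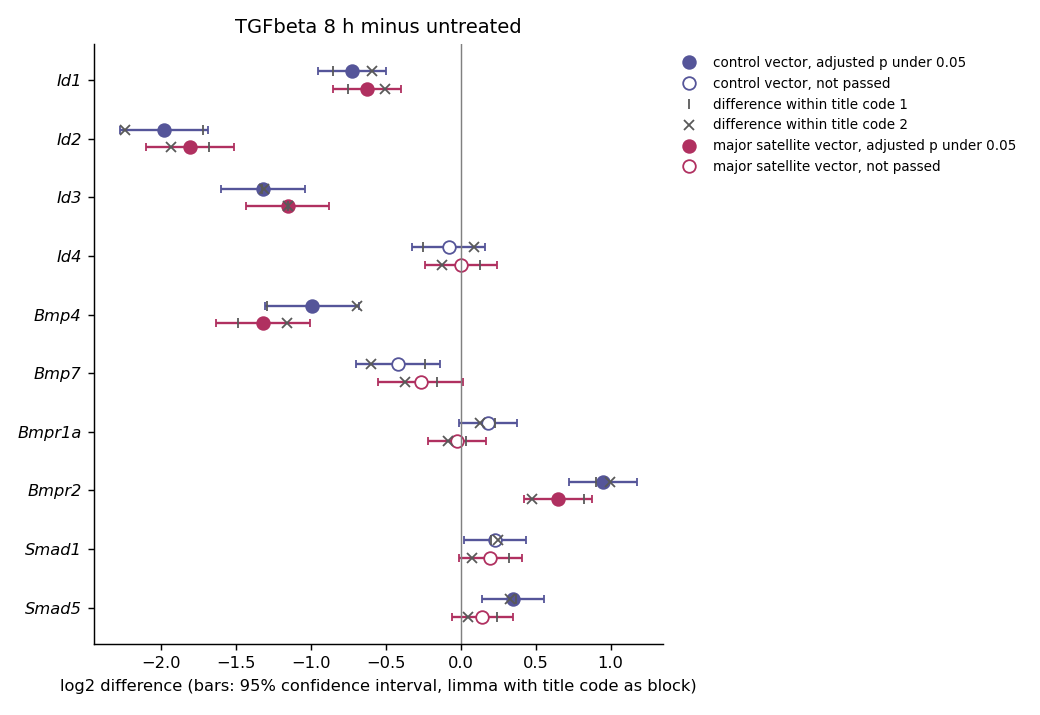
The horizontal axis gives the log2 difference of TGFbeta 8 h minus untreated for each of the 10 genes, with 1 row per vector. Large points are limma estimates with 95% confidence intervals, filled where the adjusted p was under 0.05, and the small vertical ticks and crosses are the differences within title codes 1 and 2. The points of the 2 vectors lie farthest apart for Bmp4, at -0.99 (control vector) and -1.32 (major satellite vector). In the same order, Id2 is farthest to the left at -1.98 and -1.80 and Bmpr2 farthest to the right at 0.95 and 0.65.

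The TGFbeta responses averaged over both vectors use all 8 arrays and had the smallest errors. Here 8 of the 10 genes passed, 3 higher and 5 lower, beside 24.3% of all genes tested (11.2% higher and 13.1% lower). Without the block 2 of the 10 passed, Id2 and Bmp4, beside 4.83% of all genes. Bmp7 fell by 0.34 ± 0.09 (adjusted p = 0.0196), Smad1 rose by 0.21 ± 0.06 (adjusted p = 0.0404) and Smad5 by 0.25 ± 0.06 (adjusted p = 0.0209). These 3 calls are the least firm, since without the block their adjusted p were 0.452, 0.264 and 0.61. When 1 array was left out, the Bmp7 call was lost in 6 of 8 fits (adjusted p up to 0.0794), the Smad1 call in 7 (up to 0.173) and the Smad5 call in 6 (up to 0.0903). Each of the 8 arrays, when left out, ended at least 1 of these calls, so the calls depended on single arrays. Id1, Id2, Id3, Bmp4 and Bmpr2 passed in all 8 of those fits, in this average and in each vector. In the average, Id1 fell by 0.67 ± 0.07 and Id3 by 1.24 ± 0.09, with adjusted p of 0.255 and 0.103 without the block, and Bmpr2 rose by 0.80 ± 0.07 (0.485 without it).

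The next comparisons set cells with the major satellite vector against cells with the control vector. The labels name no second transfected line of either vector, so a vector and its line cannot be told apart. None of the 10 differed between vectors past the threshold in limma, untreated (smallest adjusted p = 1) or after TGFbeta (smallest adjusted p = 0.752). At an unadjusted p under 0.05 the counts were 0 of 10 untreated, beside 3.28% of all genes, and 1 of 10 (Bmpr2) after TGFbeta, beside 6.51%. Over all genes, 0.0301% passed in each of these comparisons, and without the block 0.00502% did. In untreated cells the differences ran from -0.17 (Bmp7) to 0.13 (Id1). Id2 differed by 0.01 ± 0.13, with a 95% confidence interval from -0.28 to 0.30 and 0.01 within each replicate. Bmp4 was the 1 gene of the 10 whose untreated arrays did not overlap between vectors, at 10.84 and 10.70 against 10.85 and 10.90, beside 13.2% of all genes. Its difference was 0.11 ± 0.14.

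After TGFbeta the differences between vectors ran from -0.33 to 0.23. Bmpr2 was lower with the major satellite vector by 0.19 within replicate 1 and by 0.47 within replicate 2, and its difference of -0.33 ± 0.10 had an unadjusted p = 0.0098 and an adjusted p = 0.752. Id1 was higher by 0.21 and 0.24 within the replicates, 0.23 ± 0.10 in the fit (adjusted p = 0.752). Id2 (0.18 ± 0.13) and Id3 (0.21 ± 0.12) were higher mainly in replicate 2. Within replicates 1 and 2 they differed by 0.05 and 0.31 (Id2) and by 0.01 and 0.40 (Id3). Smad5 (-0.20 ± 0.09), Bmpr1a (-0.18 ± 0.09) and Bmp4 (-0.22 ± 0.14) were lower within each replicate. These signs are a description, since none of these differences passed. The arrays of the 2 vectors overlapped for all 10 genes after TGFbeta, beside 16.9% of all genes that did not overlap. Averaged over both times, 0 of the 10 passed, beside 0.0853% of all genes (0.0853% lower and 0% higher). Id1 (0.18 ± 0.07) and Bmpr2 (-0.18 ± 0.07) then had an unadjusted p under 0.05, as had 5.37% of all genes, and an adjusted p = 0.874.

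**Figure D3:**
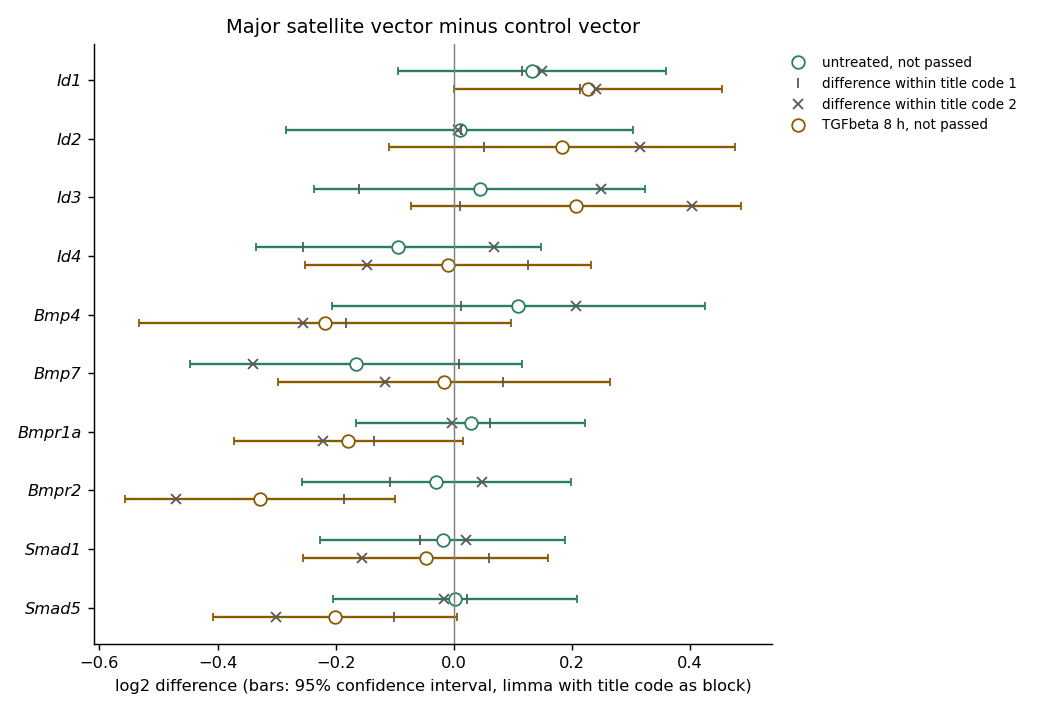
The horizontal axis gives the log2 difference of major satellite vector minus control vector for each of the 10 genes, untreated and after TGFbeta 8 h. Points are limma estimates with 95% confidence intervals, open because none had an adjusted p under 0.05, and small ticks and crosses are the differences within title codes 1 and 2. Estimates lie between -0.33 (Bmpr2 after TGFbeta) and 0.23 (Id1 after TGFbeta).

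Whether the TGFbeta responses differed between vectors was tested directly. None of the 10 genes passed, nor did any of the 19937 genes (0% called, with and without the block), and the adjusted p of all 10 was 0.999. At an unadjusted p under 0.05 the count was 0 of 10, beside 3.3% of all genes. The limma difference for Id2, major satellite minus control vector, was 0.17 with a 95% confidence interval from -0.24 to 0.59, beside responses of -1.98 and -1.80. For Id3 it was 0.16 (-0.23 to 0.56) and for Id1 0.09 (-0.23 to 0.41). Bmp4 had the largest, -0.33 (-0.77 to 0.12), and Bmpr2 -0.30 (-0.62 to 0.02, unadjusted p = 0.0656). With the treated major satellite array of replicate 1 left out, 17 of all genes passed this test, and 0 of the 10. These intervals are wide beside the smaller responses, and a missed threshold does not show that the vectors act alike.

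By group means, Id2 was highest in untreated major satellite cells (13.68 ± 0.01, standard deviation, SD, n = 2) and untreated control vector cells (13.67 ± 0.01), followed by treated major satellite cells (11.88 ± 0.19) and treated control vector cells (11.70 ± 0.38). The untreated pair did not differ beyond its spread, nor did the treated pair. Id3 had the same order, at 9.09 ± 0.41, 9.05 ± 0.70, 7.94 ± 0.41 and 7.73 ± 0.69, as had Id1, at 11.89 ± 0.50, 11.76 ± 0.52, 11.26 ± 0.32 and 11.04 ± 0.34. Bmp4 went from 10.88 ± 0.04 in untreated major satellite cells through 10.77 ± 0.10 in untreated control vector cells and 9.78 ± 0.32 in treated control vector cells to 9.56 ± 0.27 in treated major satellite cells. Bmpr2 ran the other way, with 12.43 ± 0.78 (treated control vector) and 12.10 ± 0.58 (treated major satellite) first. The untreated groups followed at 11.48 ± 0.72 (control vector) and 11.45 ± 0.83 (major satellite). Between Bmpr2 neighbours of the same treatment the SD exceeds the gap. These SD include the shift of Bmpr2 between replicate codes, 1.03 on average, which the block takes out of the test. Within each of these orders, the neighbours with the same treatment were not separated by the test.

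Several of these genes also differed between replicate codes, and by more than most genes did. Bmpr2 was 1.03 higher in replicate 2 than in replicate 1 on average (0.82 to 1.17 over the 4 groups), a size at the 98.2 percentile of all genes. Id3 was -0.78 different (-0.99 to -0.58, percentile 95.9), Id1 -0.60 (-0.74 to -0.46, percentile 91.6) and Bmpr1a 0.58 (0.48 to 0.67, percentile 91.0). The median size of this difference over all genes was 0.19. Id2 (-0.21) and Smad1 (-0.02) differed less. Id1 and Id3, lower after TGFbeta, were also lower in replicate 2, and Bmpr2, higher after TGFbeta, was higher in replicate 2. Bmp4, lower after TGFbeta, ran the other way, with 0.19 on average (-0.14 to 0.45). What the codes stand for was not given, and their part in the responses was measured only by the within-replicate differences above.

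Genes whose pattern was most like 4 of these genes were found by Pearson's r over the 8 arrays after each value was centred on the mean of its replicate code. The arrays fall into treated and untreated ones, so r mainly describes that contrast, and no p is given. Nearest to Id2 were Adh7 (r = 0.9997), Etaa1 (0.999) and Cx3cl1 (0.999), which had TGFbeta differences of -2.03, -0.65 and -1.02 in control vector cells. Nearest to Id3 were Wnt4 (0.993), Adgrg6 (0.993) and Ephx1 (0.992). Id1 was followed by Rassf7 (0.996), Emc2 (0.996) and Ptges3 (0.995), and Bmp4 by Klf16 (0.997), Eps8l3 (0.992) and Ythdc2 (0.992). A high r does not make a change pass: Ptges3 differed by -0.14 in control vector cells (adjusted p = 0.324).

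The rest of the pathway was read from 6 lists with 55 genes, of which 52 were measured. In control vector cells 9 rose and 2 fell, and in major satellite cells 7 rose and 4 fell, 21.2% of the measured genes in each, beside 14.6% and 15.3% of all genes. Smad7 and Skil, named above because TGFbeta is known to induce them, are counted among the rises in each vector and enlarge this share. The median differences of the 52 genes were 0.09 and 0.14, against 0.01 and 0.03 over all genes. No gene of these lists passed in a comparison between vectors or in the difference of the responses.

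Of 11 other BMP and GDF ligands, 0 passed in either vector or on average, with average differences from -0.0045 to 0.23 and a median of 0.10. Bmp2, a close relative of Bmp4, differed by 0.16 ± 0.13 in control vector cells (adjusted p = 0.546). Of 9 other receptors and coreceptors, 2 rose in control vector cells. Acvr1, which encodes another type I receptor of BMPs, read 10.13 and 10.57 untreated and 11.45 and 11.74 treated, and rose by 1.24 ± 0.11 (adjusted p = 0.000119, and 0.0583 without the block). In major satellite cells it read 10.12 and 10.51 untreated and 11.44 and 11.49 treated, and rose by 1.15 ± 0.11 (adjusted p = 0.000194, and 0.0732 without the block). Both treated arrays were above both untreated ones for either vector. Eng, which encodes the coreceptor endoglin, rose by 0.48 ± 0.09 and 0.44 ± 0.09 in the 2 vectors, and Acvr2a, which encodes an activin and BMP type II receptor, fell in major satellite cells by 0.42 ± 0.11 (without the block, adjusted p = 0.512, 0.562 and 0.982). Like that of Id4, the mean of Eng over the arrays lay under 7.80, the lowest mean kept in the low-mean check.

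The 10 other Smads and intracellular inhibitors had 5 rises and 0 falls in control vector cells and 4 rises and 1 fall in major satellite cells. Skil and Ski, corepressors that bind Smads, rose by 1.36 ± 0.09 and 1.10 ± 0.11 in control vector cells and by 1.25 ± 0.09 and 0.91 ± 0.11 in major satellite cells. Smad7, the inhibitory Smad that blocks both receptor classes, rose by 1.22 ± 0.11 and 1.18 ± 0.11. The ubiquitin ligase gene Smurf1, whose product targets Smad1 and Smad5, rose by 0.70 ± 0.13 and 0.57 ± 0.13, and its relative Smurf2 by 0.50 ± 0.09 in control vector cells. Tob1, an antiproliferative gene whose product binds BMP Smads, fell by 0.37 ± 0.09 in major satellite cells. Without the block Smad7 and Ski passed in both vectors and the others did not (adjusted p 0.163 to 0.734). Smad6, the inhibitory Smad of the BMP arm, differed by -0.05 ± 0.11 in control vector cells and by -0.10 ± 0.11 in major satellite cells (adjusted p = 0.856 and 0.603).

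Of 12 measured secreted antagonists, Nbl1, which encodes a BMP-binding protein, rose by 0.60 ± 0.11 in control vector cells and by 0.73 ± 0.11 in major satellite cells (adjusted p = 0.00758 and 0.0028, and 1 and 0.918 without the block), and 11 did not pass in either. Of 7 other measured BMP target genes, 2 fell and 5 did not pass. Atoh8, a helix-loop-helix factor gene, fell by 0.63 ± 0.10 and 0.73 ± 0.10, and Hey1, a target shared with Notch, by 0.66 ± 0.11 and 0.55 ± 0.11. Their adjusted p were 0.533, 0.386, 0.803 and 0.841 without the block. Msx2, a homeobox target, differed by 0.03 ± 0.09 in control vector cells (adjusted p = 0.9). Of the 3 E protein genes, whose products Id proteins bind, Tcf4 rose by 0.35 ± 0.09 in control vector cells (adjusted p = 0.0328, and 1 without the block), and on average Tcf3 rose by 0.20 ± 0.06 and Tcf4 by 0.30 ± 0.06 (0.773 and 0.808 without the block), with Tcf12 at 0.07 ± 0.06.

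Several of these pathway calls were lost when 1 array was left out, most of them under more than 1 such omission. With 1 array left out, Acvr1, Ski, Skil, Smad7 and Atoh8 passed in all 8 fits in each vector. In control vector cells Tcf4 lost its call in 6 fits (adjusted p up to 0.225), without any of the 4 control vector arrays or either untreated major satellite array. Eng, Nbl1 and Smurf1 lost theirs in 2 fits (up to 0.0796, 0.102 and 0.0868), without the untreated or the treated control vector array of replicate 2, Smurf2 in 1 (0.0913, the treated one) and Hey1 in 1 (0.0501, the untreated one). In major satellite cells Acvr2a lost its call in 5 fits (up to 0.265), without either treated control vector array, either untreated major satellite array or the treated one of replicate 2. Smurf1 lost its call without any of the 4 major satellite arrays (up to 0.127). Tob1 (up to 0.239) lost it in 3 fits, without either untreated or the second treated major satellite array, Hey1 (up to 0.115) in 3, without the first untreated or either treated one, and Eng (up to 0.0938) in 2, without either untreated one. The average rise of Tcf3 was lost in all 8 fits (up to 0.173) and that of Tcf4 in 1 (0.052, without the untreated major satellite array of replicate 2).

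**Figure D4:**
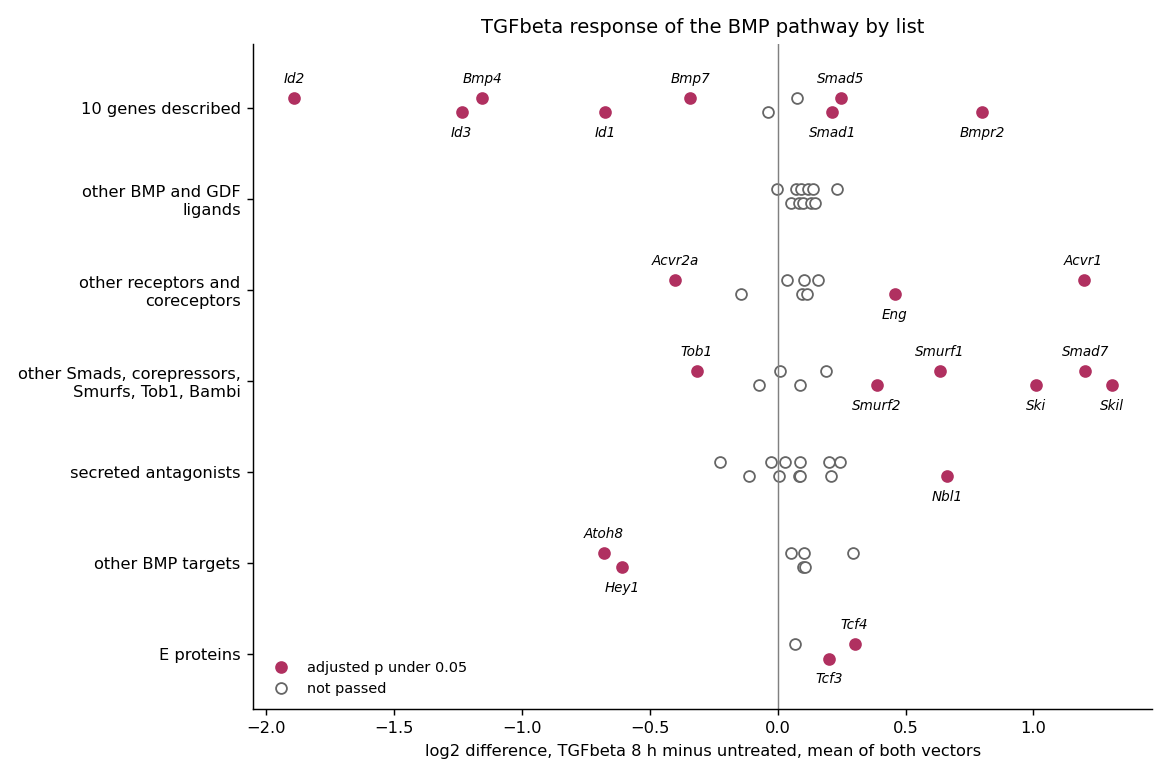
The horizontal axis gives the log2 difference of TGFbeta 8 h minus untreated, averaged over both vectors, and each row is 1 list, with the 10 genes described in the top row. Points are genes, filled and named where the limma adjusted p was under 0.05 and open otherwise, and small vertical offsets only keep names apart. Of the 52 genes outside the 10 described, 10 rose and 4 fell, with Skil farthest to the right at 1.31 and Atoh8 farthest to the left at -0.68.

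Some markers of cell types passed the same test. The shares of all genes given above were 6.92% and 6.89% higher and 7.63% and 8.38% lower in the 2 vectors. Of 8 fibroblast markers, Pdgfra (0.63 ± 0.10) and Col1a1 (0.39 ± 0.10) rose in control vector cells. In major satellite cells Pdgfra (0.70 ± 0.10), Col1a1 (0.55 ± 0.10) and Pdgfrb (0.33 ± 0.09) rose, and the mean level of the list lay between 7.17 and 7.41 over the groups. Of 9 epithelial markers, Krt7 rose by 0.86 ± 0.15 and 0.77 ± 0.15 in the 2 vectors, Krt19 fell by 0.76 ± 0.09 and 0.72 ± 0.09, and 7 did not pass in either, with list means between 10.12 and 10.25. Of the 6 endothelial and immune markers, Cdh5 rose by 0.32 ± 0.09 in control vector cells. Averaged over both vectors, 4 of 9 epithelial (3 higher), 3 of 8 fibroblast and 2 of 6 endothelial and immune markers passed, beside 24.3% of all genes. Epcam (0.39), Cldn3 (0.31) and Csf1r (0.27) rose in that average and passed in neither vector alone. With 1 array left out these rises ranged from 0.28 to 0.49, 0.22 to 0.40 and 0.25 to 0.29, and the Epcam and Cldn3 calls were not kept in every such fit. Their limma adjusted p in the average were 0.113, 0.481 and 0.503 without the block. Without the block 1 epithelial marker (Krt19, lower) and 1 fibroblast marker (Pdgfra, higher) passed in the average, and 0 markers of these lists passed in either vector. The adjusted p were then 0.189 (Pdgfra), 0.423 (Col1a1), 0.681 (Krt7), 0.107 (Krt19) and 0.813 (Cdh5) in control vector cells. In major satellite cells they were 0.143 (Pdgfra), 0.182 (Col1a1), 0.456 (Pdgfrb), 0.718 (Krt7) and 0.123 (Krt19). With 1 array left out, the control vector calls were lost in 1 of 8 fits for Pdgfra (0.0517, without the treated control vector array of replicate 2), in 2 for Krt7, in 5 for Col1a1 and in 6 for Cdh5. The major satellite calls were lost in 2 fits for Krt7, in 2 for Col1a1 and in 5 for Pdgfrb, while Krt19 kept its call in all 8 in each vector. Pdgfra, Pdgfrb, Cdh5, Epcam and Csf1r had means over the arrays under 7.80, the lowest mean kept in the low-mean check. The part of the marker changes in those of the Id and BMP genes was not tested.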

How the data were processed

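The deposited table held log2 expression values of 34760 probesets on 8 arrays, with 0 missing values. The submitters' processing notes name RMA and limma but no version or role. The build of the probe annotation is not given in the sources used here. Array medians differ between title codes, so the table is not on 1 common distribution and was used as the authors deposited it.

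Probesets with 1 symbol (21640) were kept and symbols updated through Entrez identifiers with RefSeq (GRCm38.p6). For the 954 genes with several probesets the brightest by mean over the arrays stood for the gene, and 19937 genes remained. Left out were 1321 probesets with more than 1 symbol and 11799 outside the probe table. Group means with the replicate code as a block (3 residual degrees of freedom) were estimated in R 4.3.3 by the linear models of limma 3.58.1 with eBayes moderation, two-sided, with Benjamini-Hochberg adjustment over all genes of a comparison. The fit was tested on simulated data. The block follows the title codes, which recur in every group. As a check of this pairing, deviations from the group means were correlated across genes between arrays with the same code in different groups. Over 12 pairs, r was 0.758 to 0.874, and genes are not independent replicates. The deviations within a group mirror each other, so each code repeats the r of the other by construction. The 12 pairs are therefore not separate values. The fit without the block (4 residual degrees of freedom) is given where it changes a call.

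Named were the 10 members whatever their p, the passing genes of the 6 other pathway lists, and, for Id1, Id2, Id3 and Bmp4, the 3 genes most like them, without predicted loci and small RNA genes. Genes named beyond that (Bmp2, Smad6, Msx2, Tcf12 and cell type markers) were chosen after their values were seen. The members and lists were chosen with earlier results of these data known. Listed genes without a measured value were not analysed here. Motifs were searched with Python 3.11.15. The alternatives were median-centred or quantile-normalised arrays, the mean of all probesets of a gene, a filter on low means, an intensity trend and leaving out each array.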

Additional observations from a re-analysis of the deposited data

How the results depend on the processing

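Without the replicate block, TGFbeta called 214 genes in control vector cells, 218 in major satellite cells and 962 on average, in place of 2901, 3044 and 4841. The numbers of the 10 genes called were then 1, 2 and 2, in place of 6, 5 and 8. Major satellite against control vector called 1 gene untreated, 1 after TGFbeta and 2 on average without the block, in place of 6, 6 and 17. Untreated, that count was 3 after quantile normalisation and 2 with genes of low mean left out, a filter that left 5 on average. Leaving out 1 array gave 1202 to 3161 and 1228 to 3020 genes for TGFbeta in the 2 vectors, 2 to 9 and 1 to 107 between vectors untreated and after TGFbeta, 8 to 49 between vectors on average and 0 to 17 for the difference of the responses. It left 5 to 7 of the 10 genes in the average response. The counts of 107, 17 and 49 came without the treated major satellite array of replicate 1, with 0 of the 10 genes among the first and second. The cause was not tested. Id4 was left out by the low-mean filter, and so were Eng, Pdgfra, Pdgfrb, Cdh5, Csf1r and Epcam. The calls of these genes were thus not checked under that filter. Bmp7 in control vector cells passed under that filter (adjusted p = 0.0398), where fewer genes are tested.

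Signs turned only for values that had not passed. Id4 in major satellite cells was -0.0052 median-centred and -0.0113 quantile-normalised. Between untreated vectors, Id2 was -0.0171 and Smad5 -0.0069 quantile-normalised, and Smad1 0.0024 median-centred. With 1 array left out, the TGFbeta difference in control vector cells ranged from -0.20 to 0.040 (Id4). In major satellite cells it ranged from -0.092 to 0.098 (Id4) and -0.092 to 0.039 (Bmpr1a). The untreated vector difference ranged from -0.12 to 0.14 (Id2), -0.096 to 0.18 (Id3), -0.21 to 0.027 (Id4), -0.11 to 0.33 (Bmp4), -0.38 to 0.046 (Bmp7), -0.029 to 0.086 (Bmpr1a), -0.12 to 0.064 (Bmpr2), -0.078 to 0.040 (Smad1) and -0.051 to 0.055 (Smad5). After TGFbeta that difference ranged from -0.036 to 0.40 (Id2), -0.11 to 0.093 (Id4), -0.18 to 0.15 (Bmp7) and -0.15 to 0.058 (Smad1). The difference of the responses ranged from -0.0024 to 0.19 (Id1), -0.045 to 0.39 (Id2), -0.037 to 0.20 (Id4), -0.063 to 0.36 (Bmp7) and -0.13 to 0.077 (Smad1). The average response ranged from -0.099 to 0.021 (Id4).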
